A study of Drosophila melanogaster with 6 samples.

Results

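Cadherins are calcium-dependent adhesion proteins, and 10 genes of this family were followed here in flight muscle progenitors of Drosophila melanogaster in which M1BP was depleted. The genes were chosen by name as the classical cadherins shg, CadN and CadN2, the giant cadherins ft, ds and kug, and the smaller family members Cad99C, Cad87A, Cad74A and Cad86C, out of 17494 genes in the count table. All 10 of the 10 passed the filter on low counts, as did 10306 genes in all. RNA was sequenced from myoblasts of wing discs, the progenitors of the adult flight muscles, at 0 h APF (after puparium formation) from animals raised at 25 °C. The WT group of 3 libraries carried Mef2-GAL4 and the muscle actin reporter UAS-GFP::Gma, and the M1BP RNAi group of 3 libraries carried the same pair of transgenes with UAS-M1BP RNAi #1. Both groups thus shared the driver and the reporter, and the cells were sorted from pooled discs on viability, size and GFP. Mef2-GAL4 is a mesodermal driver that is also active outside the myoblasts, in some neurons, and the knockdown left part of the M1BP transcript in place. The libraries came from triplicate RNA preparations, and the study's methods describe its replicates in general as independent biological ones, while the labels do not say how the 3 of a group were separated.

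Classical cadherins join neighbouring cells through their extracellular repeats and hold the actin cytoskeleton through β-catenin and α-catenin on the inside. Fat, encoded by ft, and Dachsous, encoded by ds, bind one another between cells, and this pair sets planar polarity and restrains growth through the Hippo kinases. In the wing disc the myoblasts lie beneath the epithelium of the presumptive notum, with tracheal branches close by.

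The targeted gene was lower in each knockdown library. M1BP, a zinc finger transcription factor of core promoters (FBgn0037621), lies on chromosome arm 3R from 8729790 to 8731698 of the dm6 build. It had 5311, 5680 and 5216 normalised counts in the WT libraries against 1387, 1841 and 1710 in the M1BP RNAi libraries. The groups did not overlap, and the knockdown mean was 30.5% of WT (log2 fold change −1.71, SE 0.10, edgeR adjusted p = 1.4e-05). Counts were summed over each gene's exons. The libraries held between 43086545 and 51855156 counts, and the 10 cadherin genes took between 0.160% and 0.210% of them. The 8 myoblast markers were all tested and summed to 453914 to 516867 normalised counts in WT and 451526 to 487372 in M1BP RNAi.

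Of the family, the Dachsous gene ds fell in the M1BP RNAi libraries, and no other cadherin gene passed the test. None of the 10 met the criteria used for the original comparison (adjusted p no higher than 0.001, fold change 1.5 or more), which 0.475% of all tested genes met. At an adjusted p of at most 0.05 the count was 1 of 10, ds, which was lower, against 4.09% of tested genes called in either direction and 2.17% called lower. At an unadjusted p of at most 0.05, 4 of the 10 were lower (ds, Cad87A, Cad86C and Cad74A) and 0 were higher, where 10.1% of all tested genes were lower. The groups did not overlap, with WT higher, for 3 of the 10 (ds, Cad87A and Cad86C), and 12.3% of tested genes had this pattern. The count without overlap was 7 of 10 when WT replicate 2 was left out and 5 of 10 without M1BP RNAi replicate 1, when the shares of all tested genes were 21.8% and 18.8%. DESeq2's Wald test called 3 of the 10 lower at an adjusted p of at most 0.05, namely ds, Cad87A and Cad86C, against 4.53% of the genes it tested. The log2 fold change was below 0 for 9 of the 10 and above 0 for CadN2. The median over the 10 was −0.52, and the median of all tested genes was 0.0070, with 48.7% of them below 0.

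**Figure D1:**
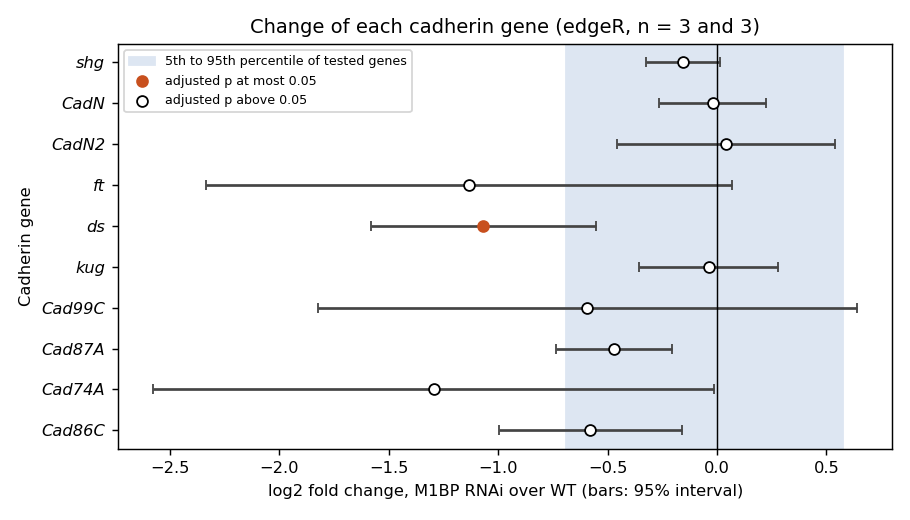
Log2 fold change of each cadherin gene, M1BP RNAi over WT (horizontal axis), with its 95% interval from edgeR, 3 libraries per group; the shaded band runs from the 5th to the 95th percentile of all tested genes (−0.69 to 0.58). The intervals of ds, Cad87A, Cad86C and Cad74A lie below 0, and the filled point marks ds, the gene with an adjusted p of at most 0.05.

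E-cadherin was the most abundant cadherin transcript of these cells and N-cadherin the next. Levels were compared between genes as CPM (counts scaled to library size) per kb of exon. On that scale shg stood at 150.1 ± 14.3 (SD, n = 3) in WT, above 95.5% of tested genes, and it made up 68.2% of the summed level of the 10 genes. CadN stood at 42.98 ± 7.53 and made up 19.5%. The next 3 genes lay close together in WT, with kug at 7.76 ± 1.75, ds at 7.60 ± 2.46 and Cad87A at 7.49 ± 1.23, and their libraries overlapped from each gene to the next. The WT libraries of the next pairs in the order, shg and CadN, CadN and kug, Cad87A and Cad86C, and Cad86C and Cad99C, did not overlap. Cad86C stood at 2.78 ± 0.82. The lowest tier held Cad99C at 0.475 ± 0.29, Cad74A at 0.445 ± 0.17, CadN2 at 0.268 ± 0.029 and ft at 0.223 ± 0.13, each overlapping the next, and ft was above 6.34% of tested genes. All but shg and CadN were under the median tested gene, which had 13.04 CPM per kb. In M1BP RNAi the mean of ds was 3.63 ± 0.76 and that of Cad87A 5.41 ± 0.53, so ds ranked below Cad87A, and the libraries of ds, Cad87A and kug (7.56 ± 0.56) did not overlap.

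**Figure D2:**
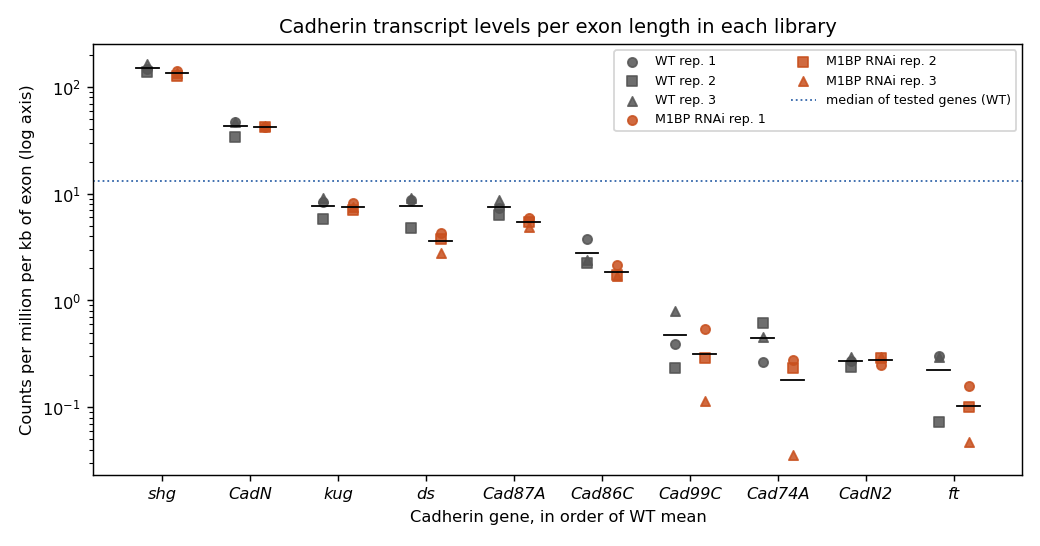
CPM per kb of exon (log axis) of each cadherin gene in each of the 3 WT libraries (grey) and 3 M1BP RNAi libraries (orange); short lines are group means, and the dotted line is the median tested gene in WT, 13.04. The shg and CadN points lie above that line in all 6 libraries, the other genes lie below it, and the spread between libraries is widest for ft, Cad99C and Cad74A.

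No classical cadherin passed the test. E-cadherin, the product of shg (shotgun; FBgn0003391), is the cadherin of epithelial adherens junctions, and its gene lies on 2R from 21049654 to 21057197 on the minus strand with 2 exon blocks. The 3 WT libraries had 43781, 41311 and 49645 normalised counts and the M1BP RNAi libraries 42191, 38296 and 40513, so that WT replicate 2 lay within the knockdown range. The log2 fold change was −0.16 (SE 0.075, 95% interval −0.32 to 0.012, adjusted p = 0.284). N-cadherin, the product of CadN (FBgn0015609), is the cadherin of mesoderm and neurons. Normalised counts of CadN were 31895, 23082 and 31835 in the WT libraries and 28234, 28554 and 28902 after knockdown. The knockdown libraries lay within the WT range and within 1.17% (coefficient of variation) of one another, while WT varied by 17.5%, with replicate 2 the lowest of the 6 libraries. For CadN the log2 fold change was −0.019 (SE 0.11, interval −0.26 to 0.23, adjusted p = 0.944).

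CadN2 (FBgn0262018), a shorter paralogue that acts with CadN in photoreceptor axon targeting, stood at a small fraction of the level of its neighbour. Both genes lie on the minus strand of 2L, CadN from 17647053 to 17778340 and CadN2 from 17786971 to 17875247, with 8630 bases and 0 annotated genes between them. For CadN2 the WT libraries held 110, 83 and 119 counts, and the knockdown libraries 92, 100 and 107. The groups overlapped fully, and the log2 fold change was 0.042 (SE 0.22, interval −0.46 to 0.54, adjusted p = 0.938). Per kb, CadN was 144 to 176 times as abundant as CadN2 in the WT libraries and 146 to 170 times in the M1BP RNAi libraries. The ratio of shg to CadN was 3.09 to 4.03 in WT and 3.02 to 3.36 in M1BP RNAi, ranges that overlapped.

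The Dachsous gene fell. The ds gene (FBgn0284247), whose product is the ligand-like partner of Fat, lies on 2L from 640013 to 714983 on the minus strand with 12 exon blocks, and 125 of its exonic bases, 1.01%, overlap lncRNA:CR44988. It had 5119, 2772 and 5356 normalised counts in WT against 2490, 2212 and 1625 in M1BP RNAi. Every knockdown library was below every WT library, but WT replicate 2 was close to the knockdown range and far below the other WT libraries. The means were 4416 ± 1428 and 2109 ± 442 (SD, n = 3), so the knockdown stood at 47.8% of WT (log2 fold change −1.07, SE 0.23, interval −1.58 to −0.55, edgeR adjusted p = 0.0333). Of all tested genes, 2.28% had a more negative log2 fold change. The call depended on single libraries. Of the 6 leave-one-out fits 4 lost it, with an adjusted p of 0.145 without WT replicate 1, 0.103 without WT replicate 3, 0.123 without M1BP RNAi replicate 2 and 0.0978 without M1BP RNAi replicate 3. It was kept without WT replicate 2 (edgeR adjusted p = 0.00194) and without M1BP RNAi replicate 1 (0.0494). The log2 fold change stayed between −1.32 and −0.91 when any 1 library was left out.

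Fat's own transcript was low and did not pass the test. The receptor gene ft (FBgn0001075) lies on 2L from 4198404 to 4221796. Its reads numbered 262, 53 and 248 in WT and 125, 73 and 36 after knockdown. WT replicate 2 lay among the knockdown libraries and M1BP RNAi replicate 3 was the lowest of the 6. The fitted log2 fold change of ft was −1.13 (SE 0.54, interval −2.33 to 0.069, adjusted p = 0.276). This is close to the estimate for ds. Between WT libraries ft varied by 58.6%, where counting error would give 7.30%. The WT libraries of ds also varied beyond counting error, by 32.3% against 1.47%. Per kb, ds exceeded ft 29.0- to 66.0-fold in WT and 27.0- to 59.8-fold in M1BP RNAi, so the ratio of the ligand transcript to the receptor transcript overlapped between the groups.

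The kug gene (FBgn0261574), on 3L from 20005301 to 20024607, encodes the Fat-like cadherin Fat2, which drives the elongation of the egg chamber in follicle cells. Normalised counts of kug were 5704, 3920 and 6162 in WT against 5536, 4785 and 5064 after knockdown. The knockdown libraries lay inside the WT range, and the log2 fold change was −0.038 (SE 0.14, interval −0.35 to 0.28, adjusted p = 0.910). At a similar WT level per kb, ds and kug thus had log2 fold changes of −1.07 and −0.038. The difference between these 2 changes was not tested.

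Of the smaller cadherins, 2 were lower without overlap and missed the adjusted threshold. Cad87A (FBgn0037963), on 3R from 11893512 to 11949129, stood at 2500, 2147 and 2978 normalised counts in the WT libraries and at 2017, 1833 and 1655 after knockdown. The knockdown mean was 72.2% of WT (log2 fold change −0.47, SE 0.12, interval −0.74 to −0.21, edgeR adjusted p = 0.0587). The adjusted p was 0.00332 with DESeq2, 0.0218 with no filter on low counts and 0.0163 without WT replicate 2. With any other library left out it lay between 0.0668 and 0.190, and with the replicate block it was 0.0846. Cad86C (FBgn0261053), on 3R from 10827079 to 10849030, is known from the eye disc, where Hedgehog and Dpp signals induce it in the morphogenetic furrow. Its 3 WT libraries stood at 1277, 767 and 813 normalised counts and its 3 knockdown libraries at 737, 599 and 579. WT replicates 2 and 3 lay just above the highest knockdown library, and WT replicate 1 stood apart from both. The knockdown mean was 67.0% of WT (log2 fold change −0.58, SE 0.19, interval −0.998 to −0.16), with adjusted p = 0.125 in edgeR and 0.0290 in DESeq2. With WT replicate 1 left out, Cad86C was at −0.31 on the log2 scale.

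Cad74A and Cad99C were low and uneven. Cad74A (FBgn0036715), on 3L from 17367753 to 17379530, takes part in the formation of the dorsal appendages of the egg. The gene drew 93, 181 and 154 counts in WT and 87, 68 and 11 after knockdown. M1BP RNAi replicate 3 stood far below the other libraries, and WT replicate 1 was level with M1BP RNAi replicate 1. The log2 fold change was −1.30 (SE 0.57, interval −2.58 to −0.014, adjusted p = 0.242), and it was −0.81 without M1BP RNAi replicate 3. Cad99C (FBgn0039709), on 3R from 29841657 to 29854699, is the fly relative of protocadherin 15 and a part of follicle cell microvilli. Counts of Cad99C were 117, 59 and 232 in WT and 148, 72 and 30 after knockdown. The groups overlapped, with the highest and the lowest of the 6 values in WT replicate 3 and M1BP RNAi replicate 3. For Cad99C the estimate was a log2 fold change of −0.59 (SE 0.55, interval −1.83 to 0.64, adjusted p = 0.584), but 0.0011 without WT replicate 3 and −0.19 without M1BP RNAi replicate 3.

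Some libraries stood apart for most of the family. WT replicate 2 was the lowest WT library for 9 of the 10 cadherin genes, Cad74A being the exception, and it was the lowest WT library for 36.0% of all tested genes. M1BP RNAi replicate 3 was the lowest knockdown library for 6 of the 10, against 29.0% of all tested genes, and those 6 were also at their lowest of all 6 libraries there. These 6 were ft, ds, Cad99C, Cad87A, Cad74A and Cad86C. WT replicate 3 was the highest of the 6 libraries for 6 of the 10. For the lowest and highest of all 6 libraries, the shares of all tested genes were not computed. In bulk RNA, fewer cells of a type and less RNA per cell cannot be told apart.

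Some markers of other wing disc cells were low in the same libraries as some of these genes, and others were not. The 13 wing disc epithelium markers were all tested, none was at 0 throughout, and they summed to 31463 to 37163 normalised counts in WT and 36127 to 38612 in M1BP RNAi. Most of that sum was rn, ara and caup, which were high in every library; the remaining 10, a subset taken after the values were seen, summed to 1292, 1171 and 1916 in WT and to 1270, 1503 and 376 in M1BP RNAi. The sum of the 10 was thus low in M1BP RNAi replicate 3, the library in which ft, ds, Cad99C, Cad87A, Cad74A and Cad86C were also lowest. Of the 10, nub was not lowest there, with 62.0, 85.4 and 73.7 in M1BP RNAi replicates 1 to 3. In the other knockdown libraries the sums of the 10 markers lay within the WT range. Within the sum, nub, pnr and sas were below every WT library in all 3 knockdown libraries, a pattern that 12.3% of all tested genes had. Of the 13, 8 had a log2 fold change below 0 and 5 above 0. Among the latter, rn was higher without overlap (0.23, adjusted p = 0.106 in edgeR and 0.0383 in DESeq2). The 5 tracheal markers were all tested and summed to 1327, 972 and 2342 in WT and to 1137, 841 and 658 in M1BP RNAi. WT replicate 2 was the lowest WT library and M1BP RNAi replicate 3 the lowest of all, as for ft, ds, Cad99C, Cad87A and Cad86C. Of the 5, 4 had a log2 fold change below 0, and trh was at 0.14 (edgeR adjusted p = 0.821). The lowest, Gasp, was at 38.0% of WT without overlap, with an adjusted p of 0.0715 in edgeR and 0.0038 in DESeq2. The 7 haemocyte markers, of which 4 were tested and eater was at 0 in every library, summed to 2992 to 3379 in WT and 2879 to 3019 in M1BP RNAi, with crq the largest part. The median log2 fold change of the 4 was −0.69, and crq was higher, at 0.15 (edgeR adjusted p = 0.365). The other 3 were lower, NimC1 with overlap between the groups. Without overlap, srp was at 37.6% of WT (adjusted p = 0.0641 in edgeR, 0.0154 in DESeq2) and Pxn at 73.7% (0.130 and 0.0380). These single markers were named after their values were seen. Markers of differentiated muscle (6, of which 4 were tested) summed to 15768 to 18648 in WT and 21005 to 23487 in M1BP RNAi, most of it Act57B, a muscle actin gene that rose (log2 fold change 0.39, adjusted p = 0.0203). The 6 neuronal markers, 5 of them tested, summed to 2788 to 3304 in WT and 2802 to 3116 in M1BP RNAi, and the 4 fat body markers to 7.47 to 10.7 and 8.01 to 23.8. The part of these cells in the cadherin values was not tested. Without M1BP RNAi replicate 3 the log2 fold changes were −0.91 for ds, −0.79 for ft, −0.40 for Cad87A and −0.51 for Cad86C. The edgeR test called none of these genes in that fit, but it had not called ft, Cad87A or Cad86C with all libraries either. The call on ds was lost (edgeR adjusted p = 0.0978), as it also was without WT replicate 1, WT replicate 3 or M1BP RNAi replicate 2. Over all tested genes the share called was 2.16% without M1BP RNAi replicate 3 and 4.09% with all libraries.

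**Figure D3:**
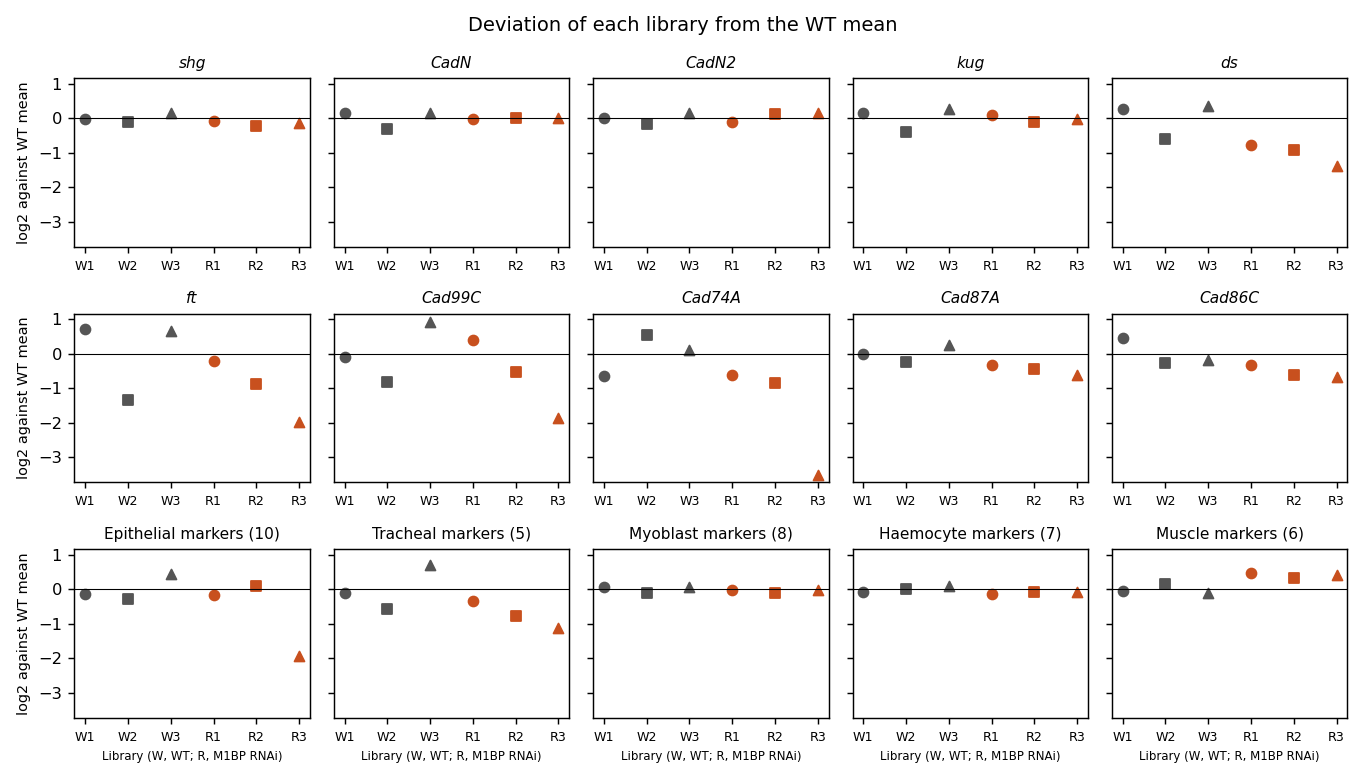
Normalised counts in each library as the log2 difference from the mean of the WT log2 values (vertical axis), for the 10 cadherin genes and for summed cell type markers; W1 to W3 are WT replicates 1 to 3 and R1 to R3 the M1BP RNAi replicates. M1BP RNAi replicate 3 is low for ft, Cad99C, Cad74A and the sum of 10 epithelial markers (−1.92). These 10 leave out rn, ara and caup, a subset taken after the values were seen. The sum of all 13 epithelial markers, not plotted, stands at 0.10 in that library. The genes shg, CadN, CadN2 and kug lie between −0.40 and 0.25 in every library.

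Of the genes that act with the cadherins, 1 passed the test. Over 7 lists of partners and pathway genes, 50 genes in all, 47 were tested, of which edgeR called 1 lower and 0 higher at an adjusted p of at most 0.05. That is 2.13% of the 47 lower, near the 2.17% of all tested genes. At an unadjusted p of at most 0.05, 5 were lower (10.6%) and 2 higher (4.26%), where 10.1% of all tested genes were lower and 10.1% higher, and the median log2 fold change was −0.031. DESeq2 called wts and ex lower and Abi higher, where it called 4.53% and 3.88% of all genes it tested. Among 9 catenins and other adherens junction partners edgeR and DESeq2 called 0. The β-catenin gene arm stood at 71443 ± 1059 (SD, n = 3) normalised counts in WT and at 71474 ± 2564 after knockdown, and alpha-Cat had 18695 ± 1325 and 18598 ± 663; both were named after their values were seen, as the direct link of shg and CadN to actin. The ends of that list were ed, an immunoglobulin adhesion protein, at −0.14 (adjusted p = 0.361) and pyd, the fly ZO-1, at 0.11 (adjusted p = 0.522). Of 7 further cadherin superfamily genes 6 were tested and 0 called by either tool, from Cad96Ca, a receptor tyrosine kinase with a cadherin domain, at −0.91 (adjusted p = 0.350) to Cad88C at 0.45 (adjusted p = 0.352). A list of 5 transcription factors was set beside the switch from E- to N-cadherin, and their part in that switch was not examined. Of these, twi, esg and zfh1 were tested and sna and wor were not. The tested log2 fold changes ran from −0.12 (esg) to −0.031 (twi).

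The genes downstream of ft and ds gave 1 call. In the Fat and Dachsous list 0 of 9 were called by either tool, with a median log2 fold change of −0.050 and a range from lft (−0.50, adjusted p = 0.492) to Fbxl7, an F-box protein that acts below Fat (0.54, adjusted p = 0.529). In the Hippo list edgeR called 1 of 11 lower, wts, the kinase that holds Yorkie out of the nucleus. Normalised counts of wts were 3813, 3281 and 3860 in WT against 2969, 2620 and 2741 after knockdown, without overlap (log2 fold change −0.40, SE 0.082, edgeR adjusted p = 0.0271). The call on wts was lost when WT replicate 1 (adjusted p = 0.126), WT replicate 3 (0.0837), M1BP RNAi replicate 2 (0.141) or M1BP RNAi replicate 3 (0.0946) was left out. The upstream Hippo regulator ex was at −0.36, without overlap between the groups, with an adjusted p of 0.0642 in edgeR, 0.0043 in DESeq2, 0.0270 with no filter on low counts, 0.0313 with the replicate block and 0.00827 without WT replicate 2. Another upstream regulator, kibra, was at −0.29 (edgeR adjusted p = 0.202, and 0.0476 with the block), Diap1, a target of Yorkie, at −0.19 (adjusted p = 0.162), and hpo, the kinase above wts, at 0.022, the highest of the list. The median of the 11 was −0.066. Of 7 Fat2 partners and WAVE complex genes edgeR called 0, from Sra-1 at −0.080 to HSPC300 at 0.34 (adjusted p = 0.118). The WAVE complex gene Abi was at 0.25 without overlap, with an adjusted p of 0.0587 in edgeR and 0.0118 in DESeq2. In the same list HSPC300 and Hem were also higher without overlap, and Sra-1 was lower without overlap. The share of all tested genes that were higher without overlap was not computed. The Cad99C partners ck, a myosin VIIa, and Sans were at −0.23 (adjusted p = 0.266) and −0.014. Among the listed genes named here, arm, ed, pyd, Cad88C, Fbxl7, ex, hpo, Diap1, Sra-1, Sans, twi and zfh1 share some exonic bases with another annotated gene, and reads from those bases cannot be assigned with certainty.

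**Figure D4:**
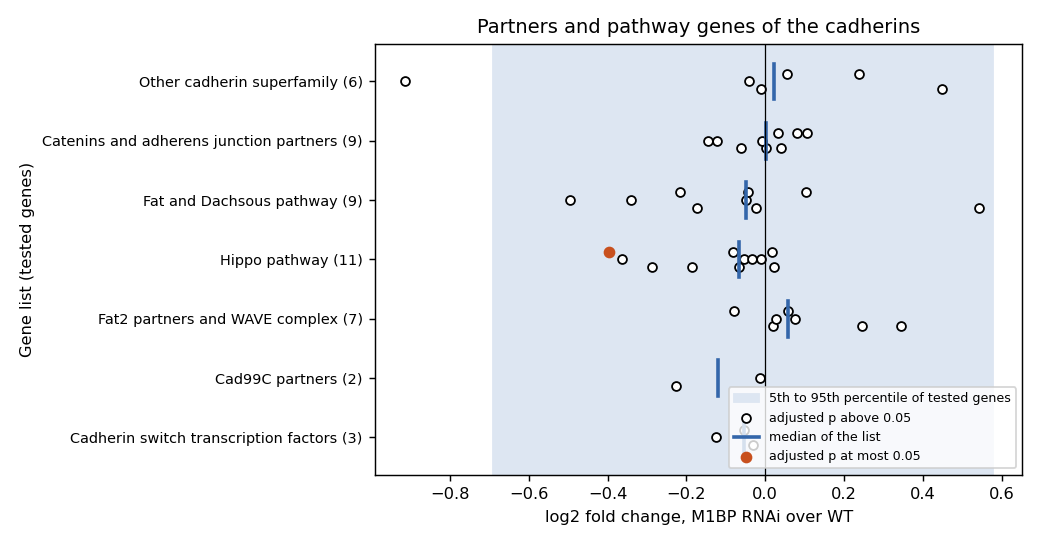
Log2 fold change, M1BP RNAi over WT (horizontal axis), of each tested gene in 7 lists of cadherin partners and pathway genes, with the number tested in brackets and a vertical bar at each list's median; the shaded band runs from the 5th to the 95th percentile of all tested genes. The 1 filled point is wts (−0.40), and the medians lie between −0.12 and 0.057.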

How the data were processed

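The deposited table held raw counts per gene for 6 libraries, which the authors made with featureCounts (Subread 2.0.3) against dm6 after bcl2fastq 2.17.1.14, per the submitters' processing notes, from polyA RNA amplified with a low-input SMART-Seq kit. The aligner and the strand setting are not given in the sources used here. A second deposited table, a DESeq2 comparison, holds a mean normalised signal, fold changes and p-values by the authors; it served only to match symbols to gene identifiers. Counts were filtered with filterByExpr (minimum count 10), scaled by TMM and tested with edgeR 4.0.16 (glmQLFit, glmQLFTest, R 4.3.3; genotype as the single term) over all 10306 genes, with Benjamini-Hochberg adjustment. DESeq2 1.42.0, other size factors, no filter, a replicate block and leaving out each library were alternatives. The fit was tested on simulated data. A count of 3, the floor of detection, correspond to 0.0579 to 0.0696 CPM. Per-length levels used the exon length in the table. Exon overlaps came from GenomicRanges 1.54.1. Named genes were M1BP, the 10 cadherins, and in each list those at an adjusted p of at most 0.05 and the highest and lowest changes. The genes ex, kibra, Diap1, Abi, Hem, app, arm, alpha-Cat and single cell type markers were added after their values were seen. The genes and lists were chosen with earlier results of these data known.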

Additional observations from a re-analysis of the deposited data

How the results depend on the processing

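Across 10 alternative settings 0 cadherin genes passed the study's threshold in any. The count at an adjusted p of at most 0.05 was 1 with all libraries in edgeR, 2 with no filter on low counts, 3 with DESeq2, and 0 to 2 when 1 library was left out; the count without overlap was 3 to 7. The replicate numbers were not taken as pairs, since the study's methods name no replicate block. The deviations of same-numbered libraries correlated at 0.034, −0.046 and −0.144, but 3 libraries per group cannot show whether they were paired. With the replicate block the count was 2, Cad86C being at −0.55 (edgeR adjusted p = 0.0394), and the count of listed partner genes was 3. That count was 1 with all libraries, 2 with no filter, 3 with DESeq2 and 0 to 7 with 1 library left out. Both counts were 0 without WT replicate 1, WT replicate 3, M1BP RNAi replicate 2 or M1BP RNAi replicate 3. Among the fits with 1 library left out, both were highest without WT replicate 2, at 2 and 7. Over all tested genes the share called was 4.09% with all libraries and 1.68% to 2.30% in the 4 fits where both counts were 0. It was 7.23% without WT replicate 2 and 8.41% with DESeq2, so it moved the same way in these fits. With no filter it was 3.63% and with the replicate block 3.58%, so there it fell while both counts rose. Without M1BP RNAi replicate 1 it was 2.75%, with both counts unchanged.
With 1 library left out, ds ran from −1.32 to −0.91 on the log2 scale, Cad87A from −0.58 to −0.35 (−0.47 with no filter, −0.48 with DESeq2), Cad86C from −0.72 to −0.31 (−0.59 with DESeq2) and wts from −0.47 to −0.36. Signs turned for CadN (−0.16 to 0.055), CadN2 (−0.041 to 0.11), kug (−0.22 to 0.084), Cad99C (−1.25 to 0.0011), esg (−0.40 to 0.25), hpo (−0.0086 to 0.046), Sans (−0.12 to 0.065) and twi (−0.072 to 0.0088). The cause was not tested. For alpha-Cat the range was −0.060 to 0.037 and for arm −0.027 to 0.023, with arm at −0.0069 with DESeq2's size factors, −0.0068 with its Wald test and −0.00017 with no filter. The 7 listed genes that passed without WT replicate 2 were ed (−0.24), HSPC300 (0.42), app, wts, ex, kibra and Diap1. For CadN2 the spread between WT libraries (10.9%) was near counting error (9.81%); for ft, Cad74A and Cad99C it was 38.9% to 61.2% against 7.30% to 8.57%.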
